A study of Mus musculus with 9 samples.

Results

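The 35 genes described here encode the pyruvate dehydrogenase complex, the tricarboxylic acid (TCA) cycle, the malate-aspartate shuttle, and enzymes and carriers at the cycle's edges. They were chosen by symbol from the deposited table of 13795 genes, and all 35 were present. The samples were heart tissue of C57BL/6 mice taken after 8 weeks, 5 samples treated with oxaliplatin at 10 mg/kg (oxaliplatin hearts) and 4 with vehicle (vehicle hearts). Oxaliplatin is a platinum drug used against cancer, and the study set out to relate its cardiotoxicity to energy metabolism in the heart. Only RNA samples above an integrity threshold of 8 were sequenced, with a SMARTer library kit. The labels used here hold no age, sex or dosing schedule. They list separate samples without tying them to separate animals, so each p-value reflects only the scatter among these 9 samples, which may be technical.

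The heart makes most of its ATP in mitochondria. Pyruvate dehydrogenase turns pyruvate into acetyl-CoA, which enters the TCA cycle together with acetyl-CoA from fatty acids, and the cycle passes electrons as NADH and reduced flavin to the respiratory chain. NADH made in the cytosol cannot cross the inner mitochondrial membrane, so the malate-aspartate shuttle carries its electrons across as malate and returns carbon as aspartate. Anaplerotic enzymes refill the cycle's intermediates, and cataplerotic ones draw them off.

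The values of a sample came from an estimated 28.5 to 36.2 M reads, and samples correlated with r from 0.921 to 0.982 across genes, which are not independent replicates. Cardiomyocyte markers were abundant in every sample, and their 12 genes summed to between 1423000 and 2054000 normalized counts in oxaliplatin hearts and between 1809000 and 2273000 in vehicle hearts. The 5 atrial markers (among them Nppa, Myl7 and Sln) summed to between 26470 and 832600 normalized counts in oxaliplatin hearts and between 12060 and 380600 in vehicle hearts. Their mean log2 level exceeded the 9-sample average by more than 1 in oxaliplatin 2, 3 and 4 and in vehicle 1.

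No transcript of the cycle or shuttle passed the test between the groups. In limma, 0 of 35 members passed an adjusted p under 0.05, against 14.3% of all 13788 genes tested (9.23% higher and 5.03% lower). At an unadjusted p under 0.05 there were 9 members, 2 higher and 7 lower, where all genes gave 28.8%. Log2 fold changes of oxaliplatin over vehicle ran from -0.39 for Pcx to 0.41 for Slc25a1, with a median of -0.16 beside a median of -0.02 over all genes tested. They were negative for 26 of 35 members, and 52.3% of all genes were negative. The member median lay below that of all genes by a difference of -0.14. Scaling samples to equal totals moved the median of all genes to 0.11 and that of the members to -0.03, with 19 negative, and left this difference at -0.14, so values given below for equal totals carry that common shift. After quantile normalization the member median was -0.04, the median of all genes -0.06 and the difference 0.02. Without the 4 samples of high atrial level the member median was 0.06, 14 members were negative and the difference was 0.08. That fit kept only oxaliplatin 1 and 5, where the members lay highest among oxaliplatin hearts, against vehicle 2, 3 and 4. The 95% confidence interval lay within a 1.5-fold change either way for 22 members and within a 2-fold change for 34, the exception being Slc25a1. In 4 members the groups did not overlap, where 14.9% of all genes showed this (8.99% above and 5.93% below): Ogdh and Pcx lay below in oxaliplatin hearts, and Aco1 and Me2 lay above.

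The count of 0 changed with some samples left out, with the weighting and with the scaling. Without oxaliplatin 1, 5 members fell (Fh1, Idh3b, Ogdh, Slc25a13 and Suclg2), and without oxaliplatin 2, 1 member did (Pcx). Weights per sample estimated by limma gave 13 lower and 0 higher, and quantile normalization gave 2 lower and 1 higher. Equal totals gave 2 higher, and adjusting for the atrial score gave 4 lower and 1 higher. Calls over all genes also moved, from 1966 with all samples to 2153 without oxaliplatin 1 and 2388 without oxaliplatin 2. They numbered 3541 with weights per sample, 2116 after quantile normalization, 1902 with equal totals and 2661 with the atrial score.

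**Figure D1:**
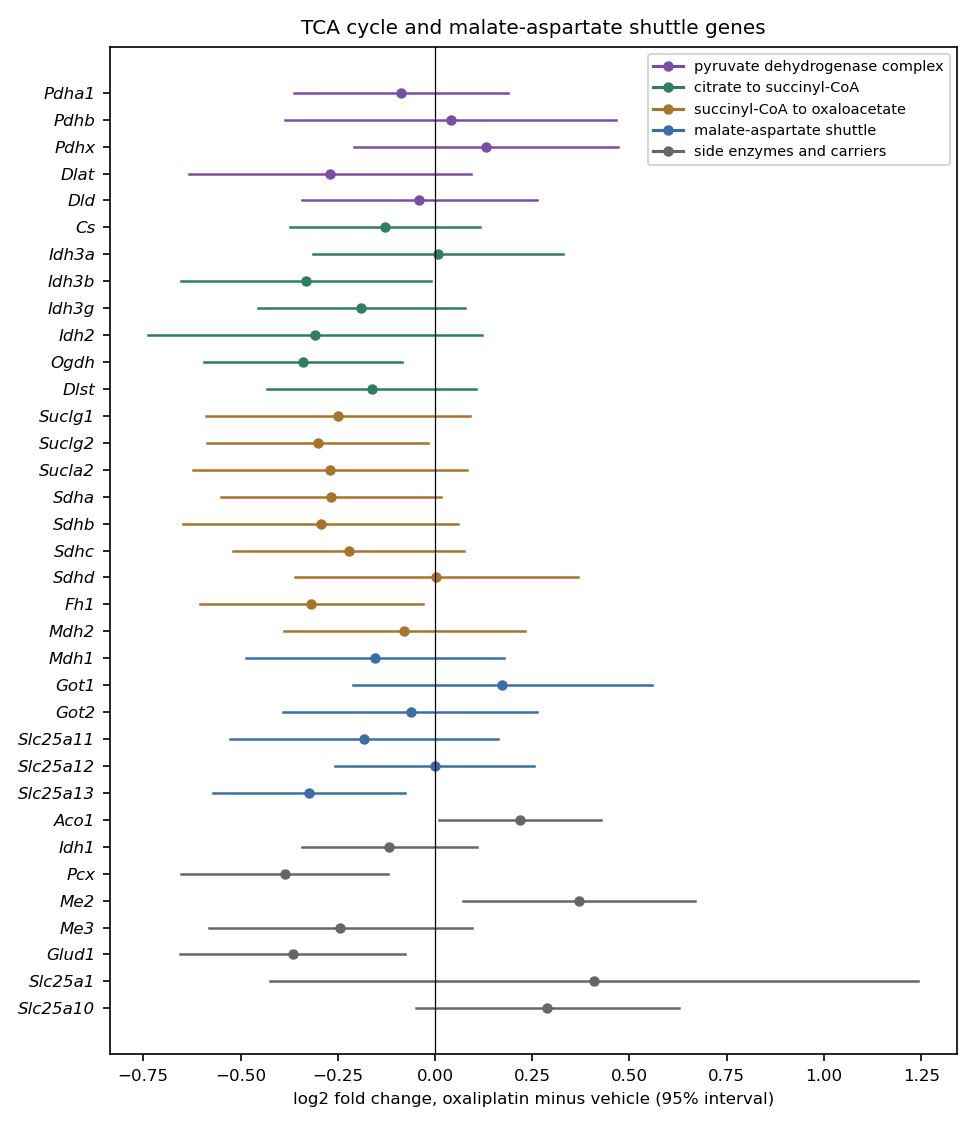
Log2 fold change (oxaliplatin minus vehicle, log2 of normalized count + 1) of the 35 genes, coloured by role, with points for the limma estimate and lines for its 95% confidence interval (5 oxaliplatin and 4 vehicle samples). Most points lie between -0.39 and 0, none passed the adjusted threshold, and Slc25a1 has the widest interval (-0.42 to 1.24).

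The 5 genes of the pyruvate dehydrogenase complex had a median log2 fold change of -0.04, and 0 of them had an unadjusted p under 0.05. Pdha1, the X-linked catalytic alpha subunit, had 36673, 31960, 29472, 28078 and 31503 normalized counts in oxaliplatin hearts, against 33530, 36328, 35528 and 28624 in vehicle hearts. The ranges overlapped almost wholly, at a log2 fold change of -0.09 (standard error 0.13), and it was 0.04 after quantile normalization and 0.05 when samples were scaled to equal totals. Pdhb, the beta subunit of the same enzyme, had 46627, 23291, 23245, 26280 and 35995 normalized counts in oxaliplatin hearts and 27874, 30553, 31642 and 26520 in vehicle hearts. Oxaliplatin 1 and oxaliplatin 5 lay above every vehicle sample and the other 3 lay below every one, so the log2 fold change of 0.04 (standard error 0.20) averages over a wide spread. Dlat, the acetyltransferase core, averaged 5190.3 ± 1320 normalized counts in oxaliplatin hearts and 6125 ± 635 in vehicle hearts (SD, n = 5 and n = 4; log2 fold change -0.27, limma adjusted p = 0.313). Pdhx, which anchors the third enzyme to the core, and Dld, that dihydrolipoamide dehydrogenase itself, had log2 fold changes of 0.13 and -0.04. Dld was 0.09 when samples were scaled to equal totals.

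From citrate to succinyl-CoA, 0 of 7 genes passed and 2 had an unadjusted p under 0.05, Ogdh and Idh3b. Ogdh encodes the decarboxylating subunit of the oxoglutarate dehydrogenase complex and lies on chromosome 11 from 6291633 to 6356642 (GRCm38). It had 51082, 50205, 46506, 42222 and 47447 normalized counts in oxaliplatin hearts, against 59735, 63884, 56212 and 60239 in vehicle hearts. Every oxaliplatin sample lay below every vehicle sample, at a log2 fold change of -0.34 (standard error 0.12, limma adjusted p = 0.0717). Leaving out each sample in turn gave adjusted p from 0.0396, without oxaliplatin 1, to 0.185. Dlst, the succinyltransferase of the same complex, had a log2 fold change of -0.16 with overlapping groups. The third subunit, Dld, is shared with pyruvate dehydrogenase.

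Cs, citrate synthase, whose activity is a common gauge of mitochondrial content, averaged 28135 ± 2190 normalized counts in oxaliplatin hearts and 30699 ± 1330 in vehicle hearts. Its log2 fold change of -0.13 had a 95% interval from -0.37 to 0.12, and it was 0.01 after quantile normalization and when scaled to equal totals. The catalytic subunit of the NAD-linked isocitrate dehydrogenase, Idh3a, averaged 29684 ± 4740 normalized counts in oxaliplatin hearts and 29478 ± 4300 in vehicle hearts, a log2 fold change of 0.01. Its partner subunits Idh3b and Idh3g had log2 fold changes of -0.33 (limma adjusted p = 0.159) and -0.19 (0.334). Idh2, the NADP-linked mitochondrial isocitrate dehydrogenase, was the most variable of this step, with 70341, 33336, 39044, 38860 and 54991 normalized counts in oxaliplatin hearts and 55898, 60252, 59392 and 50561 in vehicle hearts. Oxaliplatin 1 was the highest of the 9 samples for Idh2, and oxaliplatin 2, 3 and 4 were the lowest.

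From succinyl-CoA to oxaloacetate, 0 of 9 genes passed, 2 had an unadjusted p under 0.05 (Fh1 and Suclg2), 8 had negative log2 fold changes, and their median came to -0.27. Fh1, fumarase, had 20850, 17877, 15608, 14942 and 17825 normalized counts in oxaliplatin hearts, against 21360, 23628, 23154 and 18500 in vehicle hearts. Oxaliplatin 1 was the one oxaliplatin sample that lay above a vehicle sample, vehicle 4 (log2 fold change -0.32 ± 0.13 SE, limma adjusted p = 0.131). Leaving out each sample in turn gave Fh1 a limma adjusted p from 0.0453, without oxaliplatin 1, to 0.29. It passed in 1 of those 9 fits. Succinyl-CoA synthetase joins the common alpha subunit Suclg1 to Sucla2, which makes ATP, or to Suclg2, which makes GTP. Sucla2 averaged 17046 ± 3940 normalized counts in oxaliplatin hearts and 20197 ± 2030 in vehicle hearts, and Suclg2 averaged 3833.6 ± 691 in oxaliplatin hearts and 4674.1 ± 316 in vehicle hearts (SD, n = 5 and n = 4). The log2 fold changes were -0.25 for Suclg1, -0.27 for Sucla2 and -0.30 for Suclg2. With each sample left out in turn, Suclg2 had a limma adjusted p from 0.0259, without oxaliplatin 1, to 0.315. It passed in 1 of those 9 fits.

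Succinate dehydrogenase, which is also complex II of the respiratory chain, has 4 subunits. The flavoprotein Sdha averaged 46456 ± 5670 normalized counts in oxaliplatin hearts and 55740 ± 4800 in vehicle hearts (log2 fold change -0.27, limma adjusted p = 0.199). The iron-sulfur subunit Sdhb and the membrane anchor Sdhc had log2 fold changes of -0.29 and -0.22. The other membrane anchor, Sdhd, had 35988, 23623, 24364, 22305 and 29990 normalized counts in oxaliplatin hearts and 25437, 30659, 30787 and 21344 in vehicle hearts, a log2 fold change of 0.00 with a 95% interval from -0.36 to 0.37. Mdh2, the mitochondrial malate dehydrogenase that closes the cycle, had 104095, 72085, 69571, 79699 and 82440 normalized counts in oxaliplatin hearts and 80485, 88898, 92223 and 80203 in vehicle hearts. Its log2 fold change was -0.08, and it was 0.01 to 0.07 under the other 3 scalings.

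Promoter windows of 300 bases (250 before and 50 after the start, RefSeq, GRCm38.p6) were at hand for 32 of the 35 genes. They were searched on both strands for TNAAGGTCA, the element bound by estrogen-related receptors, for the NRF1 core motif (GCGCA and GCGC around 1 free base), and for CCAAT, the NF-Y box. Estrogen-related receptors and NRF1 are known regulators of mitochondrial genes. TNAAGGTCA was found in 1 of the 32, Sdhd, and in 1.43% of all 27025 genes with a window. The NRF1 motif was found in 4 (Dld, Sdha, Sdhd and Sucla2) and in 5.19% of all genes, and CCAAT in 19 and in 41.1% of all genes. The Sdhd window is shown because it alone held both of the longer motifs (chr9:50603800-50604099, minus strand, 5′ to 3′). Capitals mark the NRF1 motif, starting at -79, and TNAAGGTCA on the opposite strand, starting at 37.
Sdhd: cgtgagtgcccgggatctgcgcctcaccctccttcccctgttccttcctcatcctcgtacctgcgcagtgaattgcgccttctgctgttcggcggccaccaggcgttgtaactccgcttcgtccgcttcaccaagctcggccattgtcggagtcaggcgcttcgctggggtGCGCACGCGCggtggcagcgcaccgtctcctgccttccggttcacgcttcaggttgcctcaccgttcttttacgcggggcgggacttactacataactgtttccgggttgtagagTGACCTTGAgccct

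In the malate-aspartate shuttle, 0 of 6 genes passed and the median log2 fold change was -0.11. Mdh1, the cytosolic malate dehydrogenase, had the highest level per kilobase of exon among the 35 genes, 47700 normalized counts per kb in oxaliplatin hearts and 52600 in vehicle hearts. It had 157235, 112192, 101859, 109834 and 130664 normalized counts in oxaliplatin hearts, against 126030, 139578, 151017 and 123258 in vehicle hearts. The groups overlapped, with oxaliplatin 1 the highest sample, and the log2 fold change of Mdh1 was -0.15 (95% interval -0.49 to 0.18). Got1, the cytosolic aspartate aminotransferase, had 57709, 29935, 33540, 35658 and 43950 normalized counts in oxaliplatin hearts, against 32323, 35488, 38533 and 32626 in vehicle hearts. Oxaliplatin 1 and oxaliplatin 5 lay above every vehicle sample, and oxaliplatin 2 lay below every one. The log2 fold change of Got1 was 0.17 (limma adjusted p = 0.562), and it was 0.36 and passed after quantile normalization (0.0358). Got2, the mitochondrial aminotransferase, and Slc25a11, the oxoglutarate-malate carrier, had log2 fold changes of -0.06 and -0.18. The value for Got2 is uncertain, since its pseudogene Got2-ps1 has a row of its own in the table and reads may be split between them.

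The shuttle's aspartate-glutamate carrier exists as a pair of calcium-regulated proteins, aralar, encoded by Slc25a12, and citrin, encoded by Slc25a13. Slc25a13, on chromosome 6 from 6041218 to 6217173 (GRCm38), had 2833, 2219, 2209, 1981 and 2430 normalized counts in oxaliplatin hearts, against 2840, 3084, 2907 and 2781 in vehicle hearts. Oxaliplatin 1 alone reached into the vehicle range (log2 fold change -0.32 ± 0.12 SE, limma adjusted p = 0.0768). With each sample left out in turn, the adjusted p of Slc25a13 ran from 0.0203, without oxaliplatin 1, to 0.187. It passed in 1 of those 9 fits. Slc25a12 had 8706, 6641, 6472, 6713 and 7500 normalized counts in oxaliplatin hearts and 6877, 7479, 7680 and 6679 in vehicle hearts, a log2 fold change of 0.00 with a 95% interval from -0.26 to 0.25. The promoter windows of this pair are shown because their ratio separated the groups. They are chr2:71367706-71368005 for Slc25a12 and chr6:6217124-6217423 for Slc25a13, both on the minus strand, given 5′ to 3′. Capitals mark CCAAT at -22 in the Slc25a13 window, and the Slc25a12 window held none of the motifs searched.
Slc25a12: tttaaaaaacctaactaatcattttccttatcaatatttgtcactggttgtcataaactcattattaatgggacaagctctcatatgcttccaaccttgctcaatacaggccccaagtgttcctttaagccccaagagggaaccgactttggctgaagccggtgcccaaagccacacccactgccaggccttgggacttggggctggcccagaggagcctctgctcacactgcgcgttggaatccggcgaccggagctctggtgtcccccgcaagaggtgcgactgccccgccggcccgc
Slc25a13: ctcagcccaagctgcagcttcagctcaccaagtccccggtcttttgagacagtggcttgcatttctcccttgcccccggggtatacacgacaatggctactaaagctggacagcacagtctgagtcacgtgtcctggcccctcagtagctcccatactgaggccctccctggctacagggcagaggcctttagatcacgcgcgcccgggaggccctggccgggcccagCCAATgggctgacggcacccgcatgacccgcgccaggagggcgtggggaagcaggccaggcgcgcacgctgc

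Ratios within each sample were compared for 6 pairs of alternative enzymes or carriers, which removes any scaling factor of a sample. Gene length is not removed, so the difference between groups is read and the level of a ratio is not. The log2 ratio of Slc25a12 to Slc25a13 was 1.62, 1.58, 1.55, 1.76 and 1.63 in oxaliplatin hearts, against 1.28, 1.28, 1.4 and 1.26 in vehicle hearts. Every oxaliplatin sample lay above every vehicle sample, at a difference of 0.32 (standard error 0.05). The exact permutation p was 0.0159, two-sided, the smallest that 5 against 4 samples allow, and 0.0952 after Benjamini-Hochberg adjustment over the 6 pairs. The ratio of Got1 to Got2 was higher by 0.24 on the log2 scale in oxaliplatin hearts, and that of Idh2 to Idh3a lower, at a difference of -0.32, each with overlapping groups (exact permutation p = 0.0476, adjusted p = 0.0952). Differences for Mdh1 to Mdh2, Sucla2 to Suclg2 and Idh1 to Idh2 were -0.08, 0.03 and 0.19 (exact permutation, adjusted p = 0.190, 0.762 and 0.629). None of the 6 pairs passed after adjustment, but 0.0952 is the smallest adjusted p that a single pair at the smallest permutation p could reach, so no pair could have passed alone.

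The 8 side enzymes and carriers went both ways, 4 positive and 4 negative, with 0 past the adjusted threshold, and 3 of the 4 genes whose groups did not overlap belong to them. Pcx is pyruvate carboxylase, the anaplerotic enzyme that makes oxaloacetate from pyruvate, and lies on chromosome 19 from 4510472 to 4621752 (GRCm38). It had 851, 1002, 797, 739 and 650 normalized counts in oxaliplatin hearts, against 1008, 1050, 1048 and 1077 in vehicle hearts. The 4 vehicle samples lay close together and all above the oxaliplatin samples, although oxaliplatin 2 came close to vehicle 1. Its log2 fold change was -0.39 ± 0.12 (SE, limma adjusted p = 0.0535). With each sample left out in turn, the adjusted p of Pcx ran from 0.0125, without oxaliplatin 2, to 0.12. It passed in 1 of those 9 fits.

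Me2, the mitochondrial NAD-linked malic enzyme, had 308, 243, 237, 264 and 256 normalized counts in oxaliplatin hearts, against 174, 211, 218 and 204 in vehicle hearts. All oxaliplatin samples lay above all vehicle samples (log2 fold change 0.37 ± 0.14 SE, limma adjusted p = 0.0933). It passed when samples were scaled to equal totals (0.0335). Aco1, the cytosolic aconitase that doubles as an iron-responsive RNA-binding protein, had 1274, 1113, 1192, 1322 and 1219 normalized counts in oxaliplatin hearts, against 1082, 1040, 1101 and 983 in vehicle hearts. These groups were also apart, by a smaller log2 fold change of 0.22 (limma adjusted p = 0.153, and 0.0375 when scaled to equal totals).

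Glud1, glutamate dehydrogenase, which feeds glutamate carbon into the cycle as oxoglutarate, averaged 745.41 ± 101 normalized counts in oxaliplatin hearts and 961.18 ± 147 in vehicle hearts (log2 fold change -0.37, limma adjusted p = 0.0877). Me3, a mitochondrial NADP-linked malic enzyme, averaged 2829.5 ± 643 normalized counts in oxaliplatin hearts and 3304.8 ± 408 in vehicle hearts (log2 fold change -0.24). The cytosolic Idh1 had a log2 fold change of -0.12. Slc25a10, the dicarboxylate carrier, ranged from 650 to 1149 normalized counts in oxaliplatin hearts and from 629 to 755 in vehicle hearts (log2 fold change 0.29, limma adjusted p = 0.246). The citrate carrier Slc25a1 was scarce, at 51.4 to 101 normalized counts in oxaliplatin hearts and 26.9 to 135 in vehicle hearts. Its 95% interval, from -0.42 to 1.24, is too wide to set a direction.

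**Figure D2:**
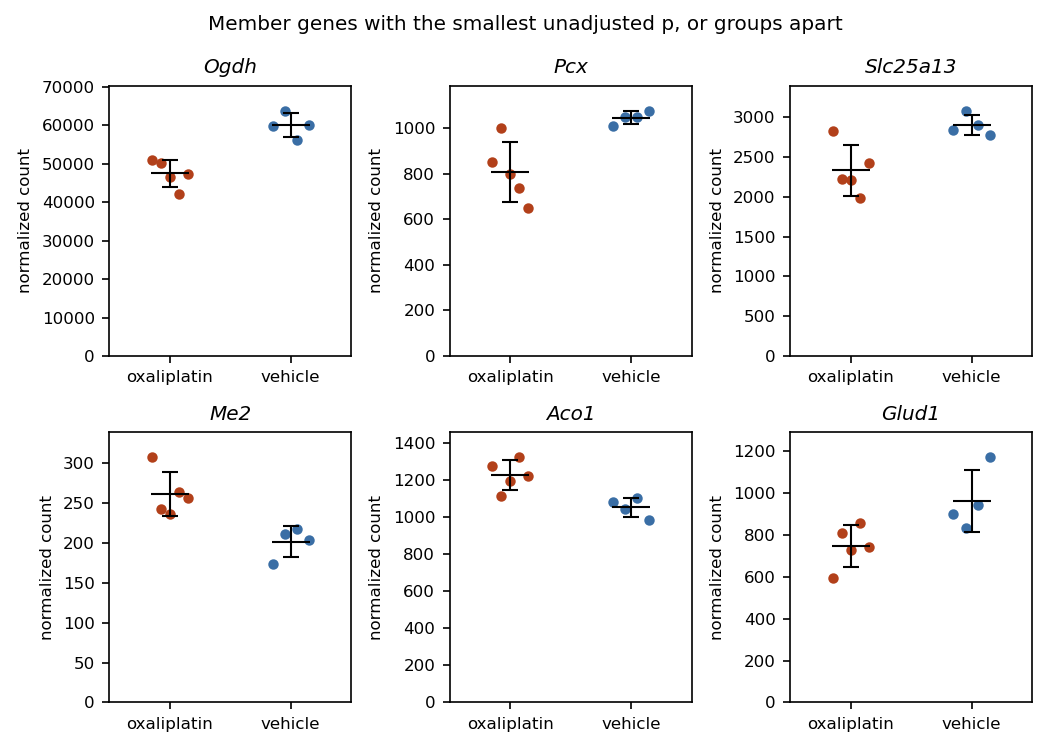
Normalized counts of 6 members by sample (points), with group mean and SD (bars), in 5 oxaliplatin and 4 vehicle hearts, on axes that start at 0. Ogdh and Pcx lie lower, and Me2 and Aco1 higher, in every oxaliplatin sample, while for Slc25a13 and Glud1 the groups touch or overlap.

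Medians of the pyruvate dehydrogenase, cycle and shuttle genes varied together from sample to sample. That of the side enzymes and carriers varied little. Values were set against each gene's vehicle mean on the log2 scale. The median over the 35 genes was 0.14, -0.24, -0.34, -0.28 and -0.04 in oxaliplatin 1 to 5, and -0.05, 0.09, 0.11 and -0.13 in vehicle 1 to 4. For the 8 side enzymes and carriers it was 0.05, -0.03, -0.02, 0.03 and 0.09 in oxaliplatin 1 to 5. In vehicle 1 to 4 their median was -0.01, 0.03, 0.04 and -0.01. Oxaliplatin 1 was the highest of the 9 samples for 18 members, where it was the highest for 15.9% of all genes tested, and oxaliplatin 4 was the lowest for 14. Within groups the median SD of the members was 0.23 in oxaliplatin hearts and 0.14 in vehicle hearts on the log2 scale, and 31 members had the larger SD in oxaliplatin hearts. No share over all genes is at hand for the lowest sample or the larger SD, so neither count is read as particular to the members.

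**Figure D3:**
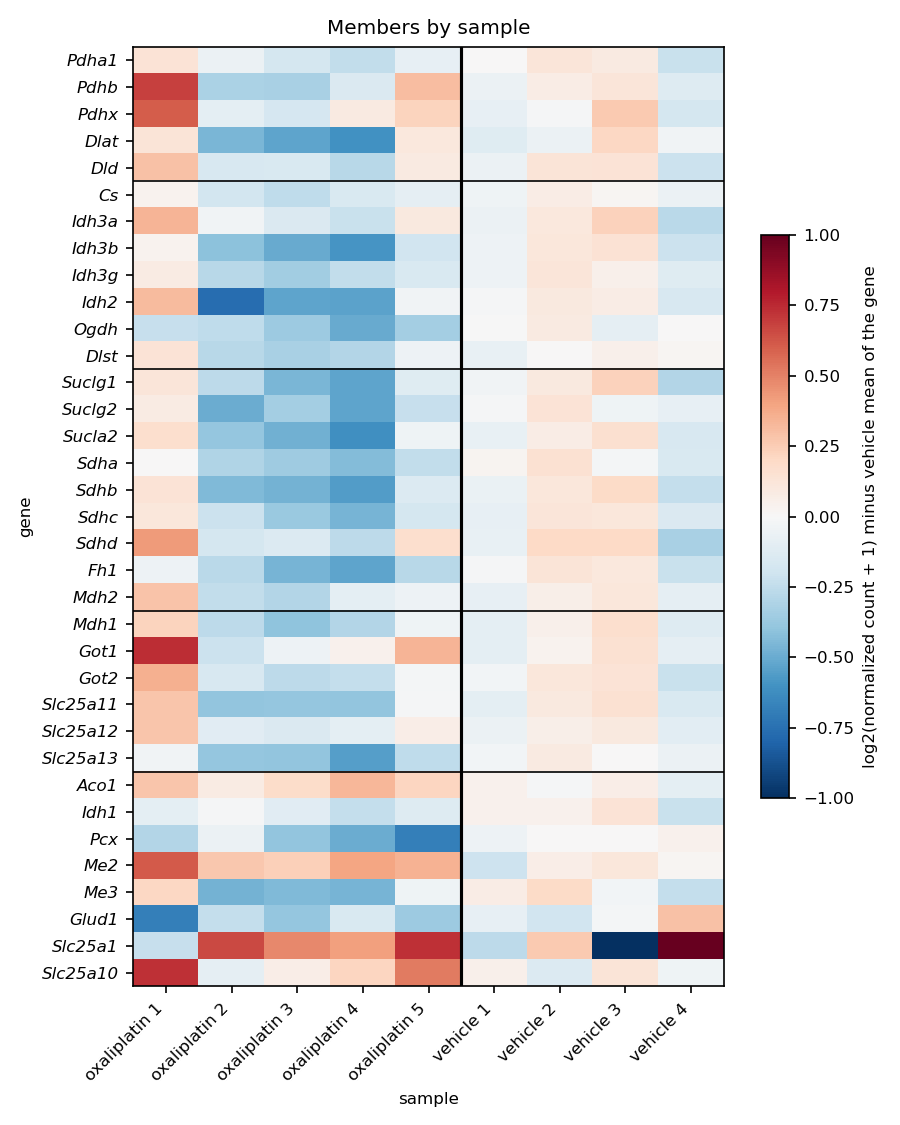
Log2(normalized count + 1) of each member minus its vehicle mean, by sample, with oxaliplatin hearts left of the vertical line and role groups separated by horizontal lines. The colour scale ends at -1 and 1, and Slc25a1 goes beyond it in vehicle 3 and vehicle 4. Oxaliplatin 1 is higher than oxaliplatin 2, 3 and 4 for most rows.

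Cardiomyocyte markers moved with this pattern. Their median over 12 genes was 0.07, -0.46, -0.50, -0.56 and -0.15 in oxaliplatin 1 to 5 and -0.12, 0.05, 0.17 and -0.12 in vehicle 1 to 4. All 12 had negative log2 fold changes (median -0.34), and 3 fell, Myh6, Myl2 and Atp2a2. In bulk tissue, fewer cells of a type and less RNA per cell cannot be told apart. The median of the members minus that of the cardiomyocyte markers was 0.07, 0.22, 0.16, 0.29 and 0.10 in oxaliplatin 1 to 5 and 0.07, 0.04, -0.05 and -0.01 in vehicle 1 to 4. This difference was at least 0.07 in every oxaliplatin sample and at most 0.07 in every vehicle sample. All 8 fibroblast markers and all 6 endothelial markers had positive log2 fold changes (medians 0.62 and 0.43), with Postn and Pecam1 passing. Fibroblast markers summed to between 25050 and 69350 normalized counts in oxaliplatin hearts and between 20970 and 31400 in vehicle hearts, and endothelial markers to between 14680 and 22460 in oxaliplatin hearts and between 11740 and 12510 in vehicle hearts. Of the 4 smooth muscle markers 0 passed (median 0.78), of the 6 macrophage markers Cd68 rose and Cd163 fell, and the 3 B cell markers tested all fell. Of the 3 adipocyte and 5 atrial markers tested 0 passed, and the 6 erythroid markers had a median of -3.06 with 0 passing. Erythroid markers summed to between 7797 and 357600 normalized counts in oxaliplatin hearts and between 221000 and 569800 in vehicle hearts. The part of these cell types in the members' values was not tested.

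**Figure D4:**
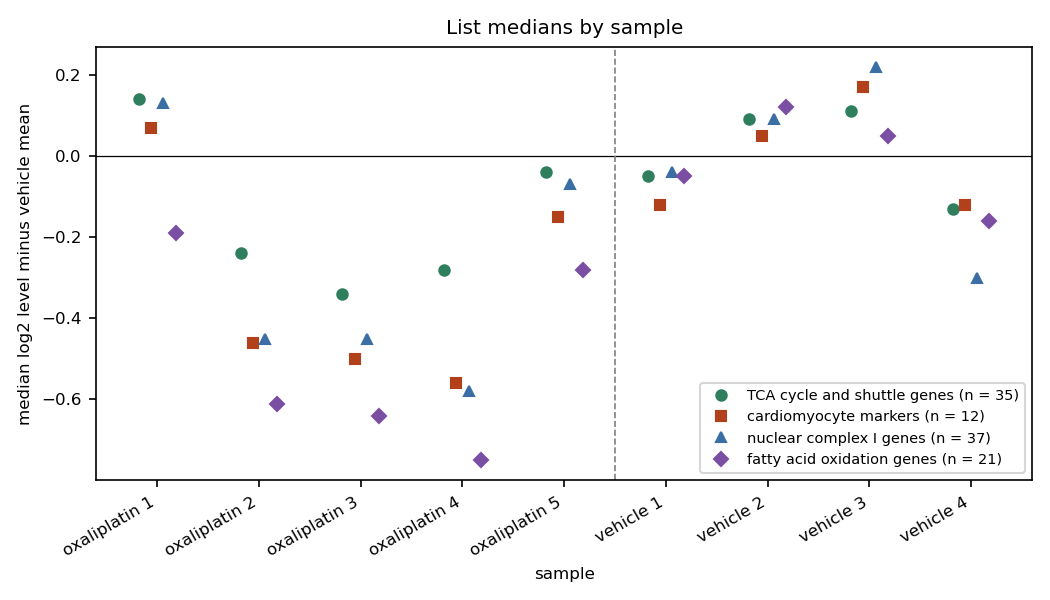
Median log2 level minus the gene's vehicle mean (vertical axis) of 4 gene lists, the TCA cycle and shuttle genes, cardiomyocyte markers, nuclear complex I genes and fatty acid oxidation genes, in the 5 oxaliplatin and 4 vehicle samples. The TCA cycle and shuttle genes have medians between -0.34 and 0.14 in oxaliplatin hearts, where the cardiomyocyte markers lie between -0.56 and 0.07, and fatty acid oxidation genes lie lowest of these 4 lists in every oxaliplatin sample.

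Several genes that border the cycle changed. Of 41 tested regulators, feeders, cofactor genes and carriers listed alongside the members, 3 rose and 8 fell, beside 9.23% and 5.03% of all genes, and 30 did not pass. Gpt2, the mitochondrial alanine aminotransferase that joins pyruvate and glutamate to alanine and oxoglutarate, fell to 202, 288, 335, 184 and 299 normalized counts in oxaliplatin hearts, against 418, 502, 577 and 642 in vehicle hearts (log2 fold change -1.05 ± 0.20 SE, limma adjusted p = 0.00440). The groups lay apart. Pcca, the biotin-bearing subunit of propionyl-CoA carboxylase on the route to succinyl-CoA, fell by 0.49 on the log2 scale (limma adjusted p = 0.00834).

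The pyruvate dehydrogenase phosphatases, which switch the complex on, fell in oxaliplatin hearts. Pdp2 had 1664, 3160, 2073, 1502 and 1588 normalized counts in oxaliplatin hearts, against 3334, 3763, 5164 and 3895 in vehicle hearts, groups that were apart (limma adjusted p = 0.00657). Pdp1 fell by 0.63 on the log2 scale with groups that overlapped (limma adjusted p = 0.0230). Of the 4 inhibitory kinases Pdk1 to Pdk4, 0 passed, and their log2 fold changes were -0.33, -0.34, 0.83 and 0.57. Ldha, the lactate dehydrogenase subunit suited to making lactate, rose to 87550, 33945, 51234, 57098 and 80583 normalized counts in oxaliplatin hearts, against 28524, 31649, 32060 and 27192 in vehicle hearts (log2 fold change 0.98, limma adjusted p = 0.0156).

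Genes that handle citrate, malate and oxaloacetate outside the cycle also passed. Acly, which splits cytosolic citrate to acetyl-CoA, averaged 1018.4 ± 90.0 normalized counts in oxaliplatin hearts and 716.96 ± 75.7 in vehicle hearts (log2 fold change 0.51, limma adjusted p = 0.00971), and its groups did not overlap. Pck2, mitochondrial phosphoenolpyruvate carboxykinase, rose by 0.51 on the log2 scale (0.0385), and Me1, the cytosolic malic enzyme, fell by 0.43 on the log2 scale (0.0328). Among carriers of other metabolites, the mitochondrial glutamate carrier Slc25a22 fell by 0.46 (0.0175) and the carnitine-acylcarnitine carrier Slc25a20 by 0.53 (0.0249), both with groups apart. Slc25a20 also belongs to the fatty acid oxidation list given below and is counted in both.

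Gpt2, Pcca, Pdp2, Ldha and Acly passed in each of the 9 fits that left out 1 sample. With the erythroid score as a covariate, Ldha and Acly no longer passed (limma adjusted p = 0.0606 and 0.0582), nor did Pdp1, Me1, Slc25a20 and Slc25a22 (0.0555 to 0.132). This score was -3.61 to -1.06 in oxaliplatin 1, 2, 4 and 5, 2.03 in oxaliplatin 3 and 0.75 to 1.96 in vehicle hearts. It shared much of the group contrast, so its part cannot be told apart from that of the treatment. Pcca did not pass without the 4 samples of high atrial score (0.0846), and Pdp1, Me1 and Slc25a22 did not pass with equal totals (0.0992, 0.202 and 0.120).

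Me1, Pck2, Pdp1, Slc25a20 and Slc25a22 each lost the call when some sample was left out. Me1 failed without oxaliplatin 2, 3 or 4 or vehicle 2, 3 or 4 (limma adjusted p up to 0.0992), and Pck2 without oxaliplatin 3, 4 or 5 or vehicle 2, 3 or 4 (up to 0.110). Pdp1 failed without oxaliplatin 4 or 5 or vehicle 1, 2 or 3 (up to 0.0694), Slc25a20 without oxaliplatin 3 or 4 or vehicle 1, 2 or 3 (up to 0.0808), and Slc25a22 without vehicle 2 or 3 (up to 0.0673).

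**Figure D5:**
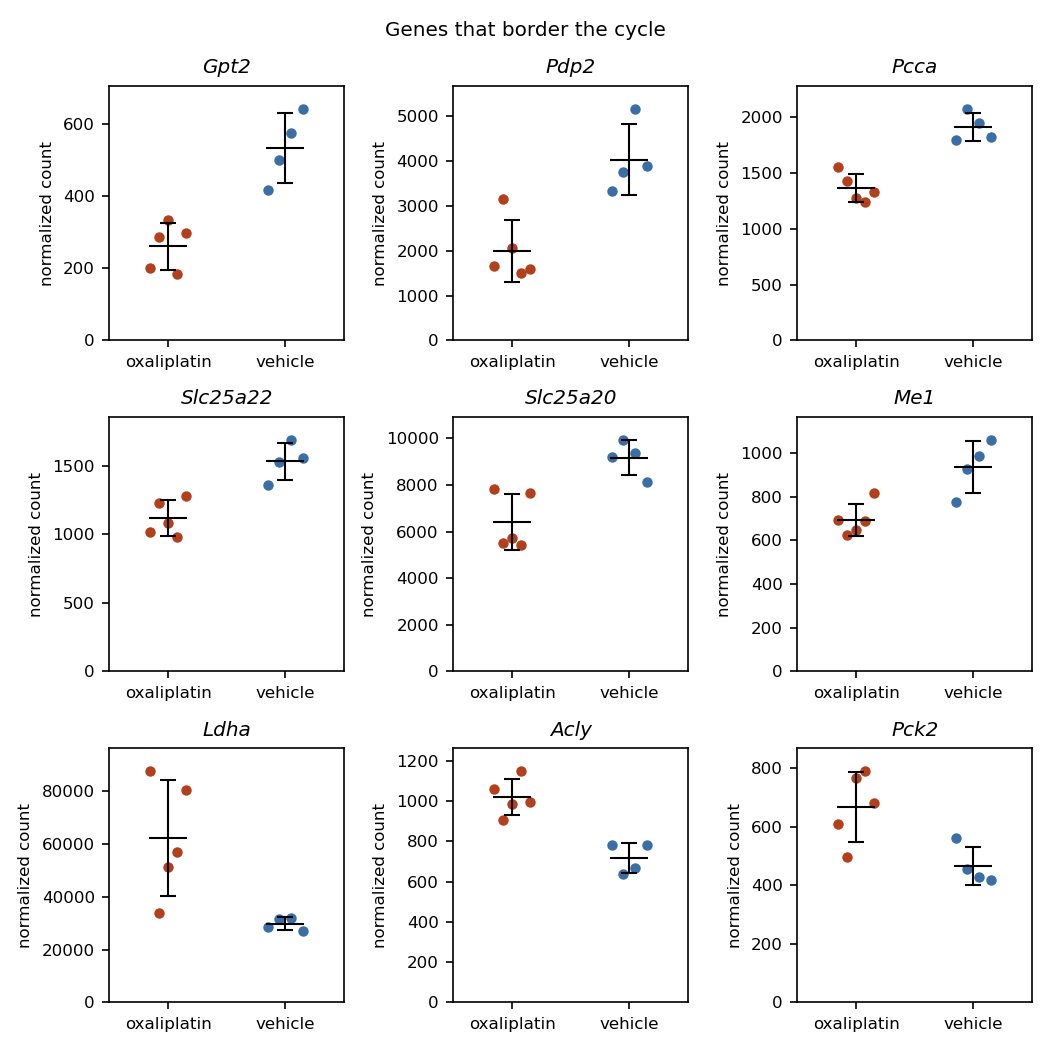
Normalized counts of 9 genes that border the cycle and passed the adjusted threshold, by sample (points), with group mean and SD (bars), in 5 oxaliplatin and 4 vehicle hearts, on axes that start at 0. Gpt2, Pdp2, Pcca, Slc25a22, Slc25a20 and Me1 fell and Ldha, Acly and Pck2 rose, with groups overlapping for Me1 and Pck2.

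Neighbouring mitochondrial pathways are given for comparison. Of 21 fatty acid oxidation genes, which supply the cycle with acetyl-CoA, 12 fell, beside 5.03% of all genes, 0 rose and the median log2 fold change was -0.53. Only 2 fell with the erythroid covariate, which shared much of the group contrast, and 2 without the 4 samples of high atrial score. Leaving out those 4 kept oxaliplatin 1 and 5, where this list lay highest among oxaliplatin hearts, against vehicle 2, 3 and 4. Without oxaliplatin 3 or oxaliplatin 4, 7 fell, and without vehicle 2 and vehicle 3 in turn, 5 and 6 fell. Complex I takes up the cycle's NADH. Of 37 genes listed here by name as nuclear-encoded complex I, 0 passed in limma and 6 reached an unadjusted p under 0.05, with a median of -0.28. The list includes Ndufa4, whose product is now placed in complex IV. In oxaliplatin 1 to 5 the median of the fatty acid oxidation genes was -0.19, -0.61, -0.64, -0.75 and -0.28, below that of the cycle genes in each sample. Log2 fold changes were negative for 20 of 21 fatty acid oxidation genes and 36 of 37 complex I genes. Among the members, 26 of 35 were negative. The differences between these lists were not tested.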

How the data were processed

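RNA of 9 mouse heart samples was sequenced. The authors deposited 1 table of normalized counts, a signal per gene and sample, 1 column per sample. STAR 2.5.1a, Partek and DESeq2 are named, per the submitters' processing notes, with no role or order. No genome build, annotation or strandedness is given in the sources used here, so overlapping genes cannot be told apart: among the members, Idh3b, Mdh1, Slc25a11 and Me3 share exonic bases with another gene of the table. Median-of-ratios factors of the deposited signal were equal over samples. The lowest maximum of any gene over the samples was 40.6. Low values lay on steps, and 73.0% to 75.9% of values between 1 and 1000 estimated reads were within 0.02 of a whole read, so whole reads were not recovered and no count test was run.

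Groups came from the titles. The test was limma 3.58.1 under R 4.3.3, its variance moderation robust and following the trend with level, applied to log2(normalized count + 1) of the 13788 genes with a mean of at least 10. It was two-sided, with Benjamini-Hochberg adjustment over all genes and a threshold of 0.05. Fold changes on this scale understate the change of low genes. Confidence intervals are limma's, unadjusted. Pair ratios were tested by exact permutation over samples. The steps were tested on simulated data.

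Members and lists were chosen with earlier results of these data known. The naming rule took every member that passed or whose groups did not overlap, the member of smallest p and of highest mean count, not corrected for length, in each role, both members of each pair, and the bordering genes that passed, of which 1 is not reported here; Pdk1 to Pdk4 were added after their values were seen. The motifs were also picked after the data had been seen. Alternatives were pseudocount, filter, scaling, limma settings, sample weights, replicate number as a block, and leaving out each sample. Erythroid and atrial marker scores as covariates, and removal of samples of high atrial score, were chosen after seeing the data. Coordinates were looked up by symbol in GENCODE M21 (GRCm38), where all 35 members and 13589 symbols in all were found, and levels per kb used its merged exons.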

Additional observations from a re-analysis of the deposited data

Results flagged for a closer look

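Of 106 groups of values examined, a single sample lay far from the rest in 2, where chance flags about 1 group in 20. Both were vehicle 3. Its log2 ratio of Slc25a12 to Slc25a13 was 1.4, the highest of the 4 vehicle hearts, where the next was 1.28, and it still lay below every oxaliplatin heart. Its log2 ratio of Sucla2 to Suclg2 was 2.31, where the next vehicle heart had 2.05, and it was the highest of all 9 samples.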

How the results depend on the processing

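Counts of calls rested more on how samples were weighted and on which samples were used than on the pseudocount or the filter. Over all genes, 1966 passed, against 3541 with weights per sample, 1081 with the erythroid score as a covariate and 1110 to 2388 with 1 sample left out. The count was 2116 after quantile normalization, 1902 with equal totals, 2661 with the atrial score and 1670 without the 4 samples of high atrial score. Among the members, 0 higher and 0 lower became 1 and 2 after quantile normalization, 2 and 0 with equal totals, 1 and 0 with equal totals of genes that are not mitochondrially encoded, 0 and 13 with weights per sample, 1 and 4 after adjusting for the atrial score, and 1 and 0 without the 4 samples of high atrial score (oxaliplatin 2, 3 and 4 and vehicle 1). With 1 sample left out, 0 were higher and 0 to 5 lower. The member median was -0.25 to -0.12 with 1 sample left out and 0.06, with 14 of 35 negative, without those 4. Bordering genes that rose numbered 1 with the erythroid score. Those that fell numbered 13 after quantile normalization, 5 with equal totals, 19 with weights per sample, 5 with the erythroid score, 5 without the 4 samples and 4 to 14 with 1 left out. Fatty acid oxidation genes that fell numbered 20 with weights per sample, 2 with the erythroid score, 2 without the 4 samples and 5 to 16 with 1 left out. Complex I genes that fell numbered 5, 1, 21 and 2 with quantile normalization, equal totals of non-mitochondrial genes, weights per sample and the atrial score, and 0 to 5 with 1 left out. The cause was not tested.

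Some log2 fold changes and pair differences turned sign. Without the 4 samples of high atrial score, Pdha1 was 0.03, Dlat 0.08, Dld 0.17, Idh2 0.14, Dlst 0.02, Sucla2 0.04, Mdh2 0.09, Mdh1 0.06, Got2 0.16, Slc25a11 0.10, Slc25a12 0.15 and Me3 0.11. That fit kept oxaliplatin 1 and 5, where the members lay highest among oxaliplatin hearts, and vehicle 2, 3 and 4. After quantile normalization, Pdha1 was 0.04, Cs 0.01, Mdh2 0.07, Got2 0.08 and the difference in the Idh1 to Idh2 ratio -0.03. Equal totals raised the median of all genes to 0.11, and equal totals of genes that are not mitochondrially encoded to 0.07, from -0.02, while the member median stayed below it by a difference of -0.14 in each, so the sign turns of these scalings follow from a shift common to all genes. With equal totals, Pdha1 was 0.05, Dld 0.09, Cs 0.01, Mdh2 0.05, Got2 0.07, Slc25a12 0.13 and Idh1 0.02, and with equal totals of genes that are not mitochondrially encoded, Pdha1 was 0.00, Dld 0.05, Mdh2 0.01, Got2 0.03 and Slc25a12 0.09. Pdhb, Idh3a and Sdhd were -0.10, -0.11 and -0.15 with weights per sample and -0.07, -0.08 and -0.03 with the erythroid score. With the atrial score, Dld was 0.01 and Slc25a12 0.04. With 1 sample left out, Pdhb ran from -0.12 to 0.13, Dld from -0.12 to 0.02, Idh3a from -0.08 to 0.08, Sdhd from -0.11 to 0.07 and Slc25a12 from -0.07 to 0.04.

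Samples of the same replicate number correlated with r = -0.27, -0.06, -0.09 and 0.25 in their deviations, so the numbers were not taken as pairs. With the replicate number as a block the member median was -0.19, Pdhb, Idh3a and Sdhd were -0.03, -0.02 and -0.04, the difference in the Sucla2 to Suclg2 ratio was -0.01 (also -0.01 without oxaliplatin 5), and Pck2 had a limma adjusted p of 0.0912.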

Other observations

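The 35 genes together took 2.92%, 2.47%, 2.42%, 2.47% and 2.76% of the total signal in oxaliplatin 1 to 5, against 2.57%, 2.61%, 2.65% and 2.72% in vehicle 1 to 4. Genes encoded in the mitochondrial genome took 18.1% to 20.9% in oxaliplatin hearts and 18.1% to 24.1% in vehicle hearts. Of the members, 30 had a mean of at least 1000 normalized counts, a level at which 17.8% of all genes tested passed. A mean of at least 10000 was reached by 22 members, and at that level 12.9% passed.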
